A study of Solanum phureja with 20 samples.

Results

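BEL5 and CDPK1 are potato genes known from work on tuber formation, and their transcripts were followed here over 4 lines of a potato ploidy series in growing leaflets and growing root tips. The members are all spots whose single gene symbol in the array's annotation is BEL5 or CDPK1. They are 6 of 32448 spots, 3 of the 15360 clones printed as duplicate spots, and 2 of 430 genes with a single symbol. BEL5 has 2 clones, called clone 1 and clone 2 here, and CDPK1 has 1. The genes were chosen by an earlier result from these arrays, namely that BEL5 clone 1 was lower and CDPK1 higher in diploid than in monoploid root tips. Root tip differences from the monoploid or the tetraploid are therefore given as a description with no test. The leaf values and the root tip difference between the diploid lines were not used in the choice and are tested.

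The lines belong to a synthetic series named O37, made by chromosome doubling of a monoploid plant with 12 chromosomes that came from Solanum phureja. They are the monoploid (1x), the diploids 2xR3 and 2xR5, and a tetraploid (4x). All 4 therefore share the genome of 1 monoploid plant. The monoploid and tetraploid levels are represented by 1 line each, so ploidy and line cannot be told apart for them, while the diploids are a pair of lines at the same ploidy. Leaf RNA came from 6 plants per line at day 20 after planting, with daily 0.5x Hoagland solution. Root tip RNA was taken at day 7 and was amplified, per the labels. Both tissues came from growth chambers set to a light period of 15 h (23.5 °C), a dark period of 9 h (15.5 °C) and a relative humidity of 50%. Each of 20 2-colour arrays (12 leaf, 8 root) compared 1 line in Cy3 with another in Cy5. Replicates 1 and 2 of leaf, like replicates 4 and 5 of root tip, were closed loops of 4 arrays that held every line, whereas leaf replicate 3 held dye-swapped pairs of 1x with 4x and of 2xR3 with 2xR5.

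The deposited values are log2 ratios of one line to another, read as Cy5 over Cy3. That direction is likely, as it is the usual convention of limma, the tool that the submitters' processing notes name, but it is not stated, and the reverse would turn every sign below. A ratio gives no level, so leaf and root levels were not compared, and the labelled tissues could not be checked by a marker. Arrays held 12403 to 18629 spots with a value. In root tip, the 4 arrays that include 1x were wider than the others: their median absolute log2 ratio was 0.2 to 0.245, against 0.096 to 0.097 on the 4 arrays without 1x. In leaf the ranges were 0.141 to 0.214 with 1x and 0.104 to 0.244 without it. In bulk tissue, fewer cells of a type and less RNA per cell cannot be told apart. The labels call the replicates biological without saying which plants went into which, so the p-values cover the variation among the RNA samples at hand.

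BEL5 encodes a BEL1-like homeodomain protein that acts with KNOX partners such as POTH1 as a transcription factor. Its messenger RNA is known in potato to move through the phloem from leaf to stolon tip, where short days promote its transport and where the protein favours tuber formation. Transcript of BEL5 is also known in roots. CDPK1 encodes a calcium-dependent protein kinase, in which a kinase domain and calcium-binding EF hands lie in a single protein. In potato it is known from swelling stolons and tubers. Both genes are thus studied mostly in stolons, a tissue that these arrays did not sample.

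Which measurements exist differs between the clones. BEL5 clone 1 had a value on 12 of 12 leaf and 8 of 8 root arrays, with both spots each time. BEL5 clone 2 had a value on 9 of 12 leaf arrays, from 15 of 24 possible spot values, and on 0 of 8 root arrays. The CDPK1 clone was the reverse, with 8 of 8 root arrays and 3 of 12 leaf arrays (4 of 24 spot values). Why a spot lacks a value is not stated, so a gap is not read as a low level. Clone 1 of BEL5 was thus in the fits of both tissues, which took clones with a value on every array (6001 in leaf, 8245 in root tip), and CDPK1 was in that of root tip.

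In root tip, the monoploid had the lowest CDPK1 value in both replicates, and the other 3 lines lay close together above it. In replicate 4, CDPK1 exceeded the monoploid by 0.47 in 2xR3, 0.44 in 2xR5 and 0.53 in 4x on the log2 scale. In replicate 5 the same differences were 0.51, 0.56 and 0.43. Above 1x the order was not the same in the replicates, as 4x was the highest in replicate 4 and the lowest of the 3 in replicate 5. The fitted difference was 0.50 ± 0.06 (SE, n = 2 loops) for the mean of the diploids against 1x, which is 1.41-fold, and 0.48 ± 0.07 for 4x against 1x, or 1.39-fold.

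The CDPK1 line values were solved from the single arrays that follow, which are thus no separate support. On the 4 arrays that held 1x, the mean of the spots was 0.42 for 2xR3 over 1x and -0.50 for 1x over 2xR5 in replicate 4. In replicate 5 it was -0.59 for 1x over 2xR3 and 0.48 for 2xR5 over 1x. Monoploid RNA was thus the lower one in either dye. On the 4 arrays without 1x the mean ran from -0.21 to 0.003, and the spots of the replicate 5 array of 2xR3 over 4x differed in sign (-0.18 and 0.19). The steps between lines above the monoploid were small: 4x minus the diploids was -0.02 ± 0.06, with 0.068 in replicate 4 and -0.106 in replicate 5.

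The diploid lines did not differ detectably in CDPK1. The difference of 2xR5 from 2xR3 was 0.01 ± 0.07 (95% interval -0.17 to 0.19, n = 2 loops, limma with Benjamini-Hochberg adjusted p = 0.998), with values of -0.031 and 0.051 in the replicates. No clone of 8245 passed that test (0%), and 301 had an unadjusted p under the threshold of 0.05. CDPK1 and BEL5 clone 1 were both past the threshold for diploids against 1x, the comparison that chose them, as were 45.3% of all clones, so nothing is read from it.

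**Figure D1:**
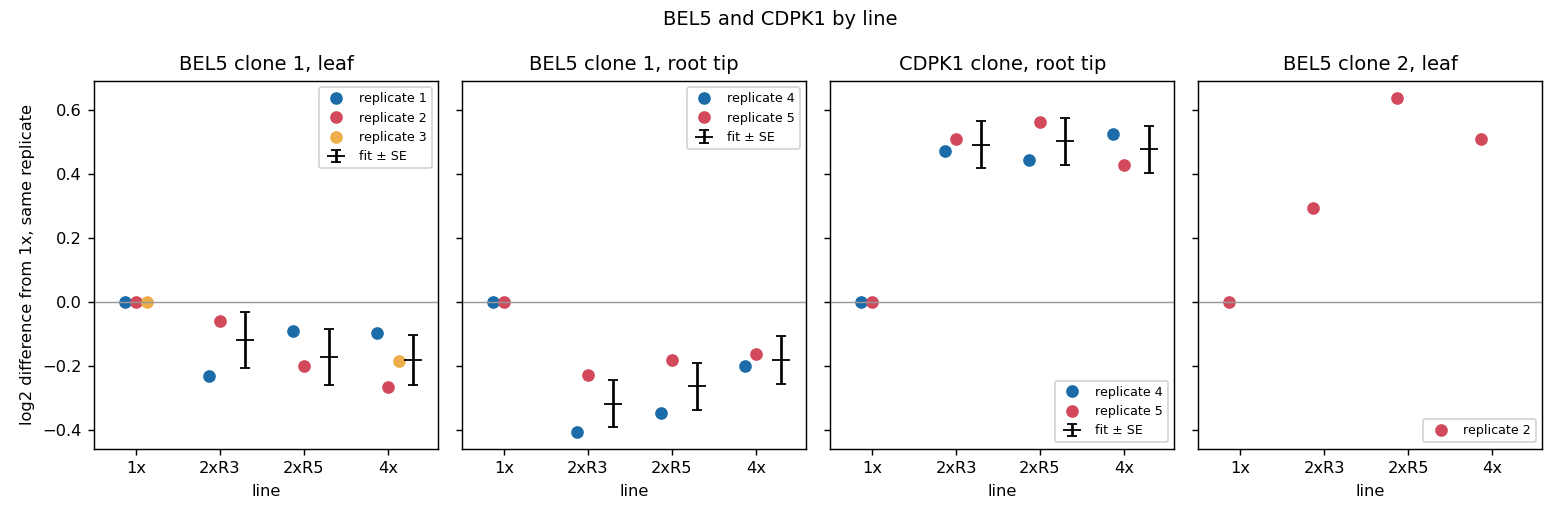
Difference of each line from the monoploid (1x) in the same replicate, on the log2 scale, for BEL5 clone 1 in leaf and root tip, CDPK1 in root tip and BEL5 clone 2 in leaf. Points are replicates, set at 0 for 1x, and black bars are the fitted difference ± SE. BEL5 clone 1 lies below 0 in every line and replicate shown, while CDPK1 and the single loop of BEL5 clone 2 lie above it.

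BEL5 clone 1 went the other way in root tip, with its highest value in the monoploid and its lowest in 2xR3 in both replicates. In replicate 4, it was below the monoploid with a log2 difference of -0.41 in 2xR3, -0.35 in 2xR5 and -0.20 in 4x. In replicate 5 the differences were -0.23, -0.18 and -0.16. The order of the lines from high to low was 1x, 4x, 2xR5 and 2xR3 in both. The fitted difference of the diploids from 1x was -0.29 ± 0.06 (SE, n = 2 loops), or 1.22-fold lower, and that of 4x from 1x was -0.18 ± 0.07, or 1.13-fold lower.

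The neighbours below the monoploid in that order were not well separated for BEL5 clone 1. The tetraploid exceeded the diploids by 0.11 ± 0.06, with 0.177 in replicate 4 and 0.041 in replicate 5. Against 2xR5 alone, the tetraploid was higher by 0.15 and 0.017. The difference of 2xR5 from 2xR3 was 0.05 ± 0.07 (95% interval -0.13 to 0.23, limma adjusted p = 0.998), with 0.060 and 0.048 in the replicates. The 4 arrays with 1x gave a mean spot value of -0.34 for 2xR3 over 1x and 0.41 for 1x over 2xR5 in replicate 4, and of 0.24 for 1x over 2xR3 and -0.17 for 2xR5 over 1x in replicate 5. The signal of BEL5 clone 1 was thus higher in monoploid RNA whichever dye that RNA carried.

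Root tip values of both genes changed with the scaling of the arrays. When all arrays were scaled to a common spread, the 4x difference of BEL5 clone 1 from 1x went from -0.18 to -0.019 and its diploid difference from -0.29 to -0.19. For CDPK1 the scaled differences were 0.30 for 4x and 0.33 for the diploids. Among all clones, 3735 of 8245 passed for diploids against 1x as deposited (1721 higher, 2014 lower) and 712 after scaling (452 higher, 260 lower). Whether the wider spread of these arrays plays a part in the values of the 2 genes was not tested. Over the 8 root tip values of the lines, BEL5 clone 1 and CDPK1 correlated at r = -0.826, a description in which both share the same arrays and the same contrast of 1x with the rest.

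**Figure D2:**
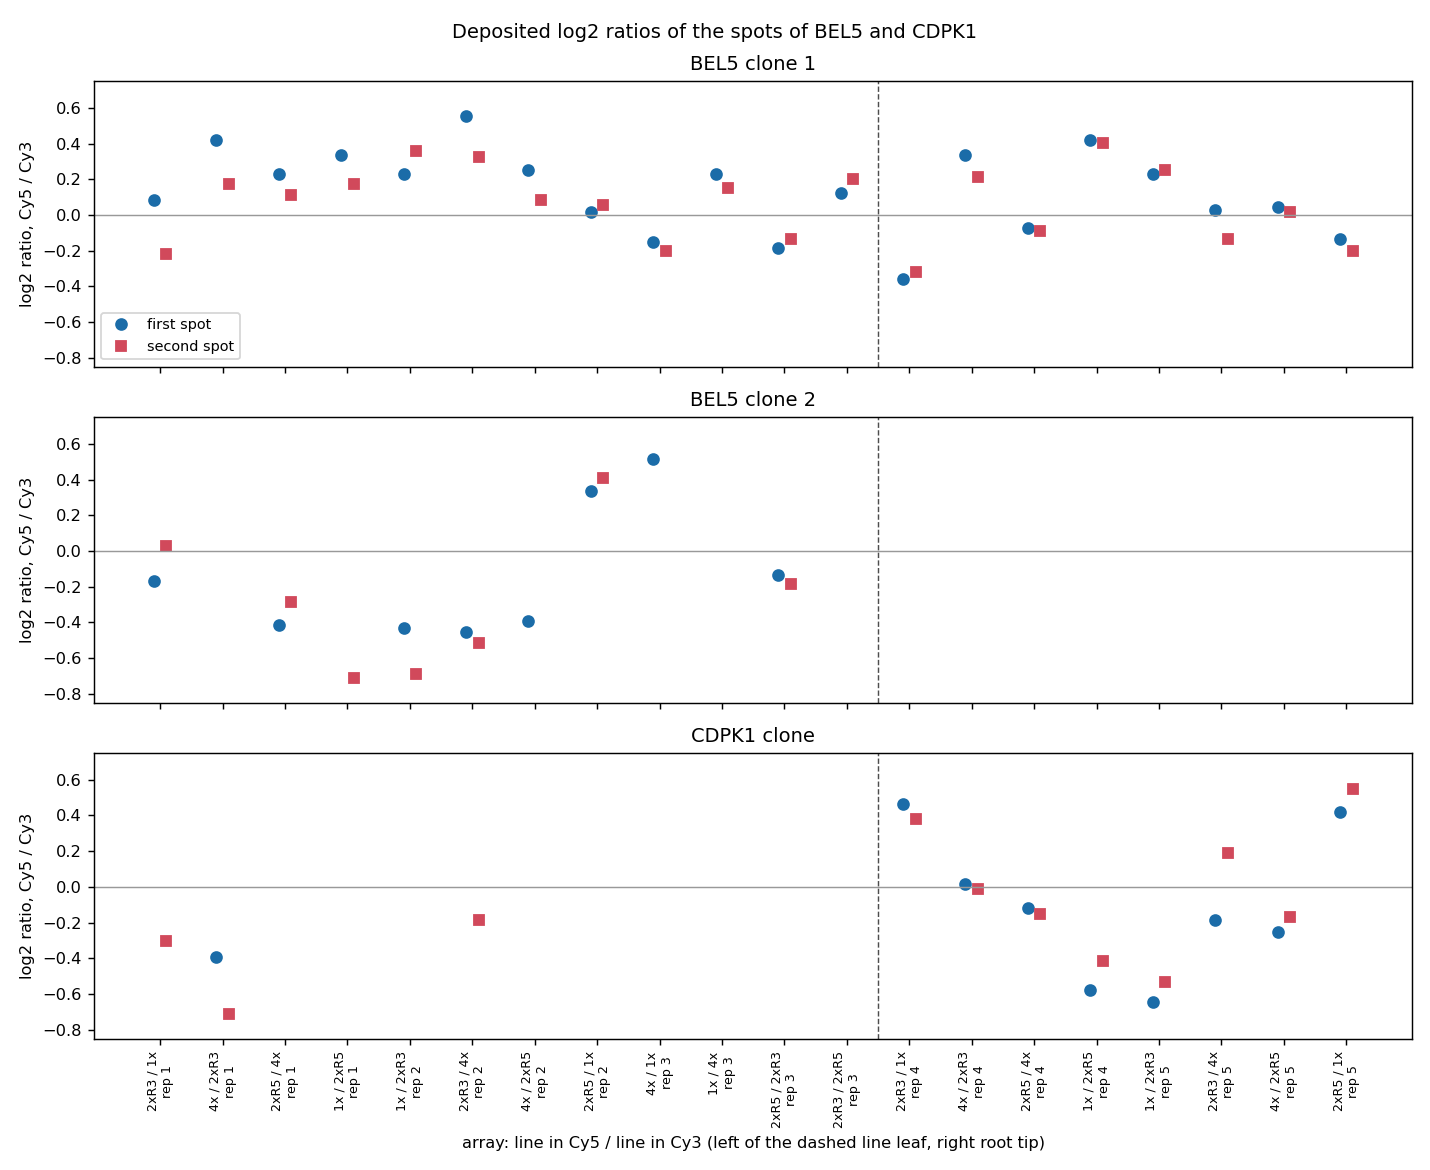
Deposited log2 ratios (Cy5 over Cy3) of the duplicate spots of each clone on the 20 arrays, leaf to the left of the dashed line and root tip to the right; gaps are missing values. CDPK1 values are far from 0 on the 4 root arrays that hold 1x (mean 0.42, -0.50, -0.59 and 0.48), and BEL5 clone 1 leaf values are mostly above 0 in replicates 1 and 2.

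In leaf, BEL5 clone 1 again had its highest value in the monoploid, but the differences were small and did not pass the test. In replicate 1, the log2 differences from 1x were -0.23 in 2xR3, -0.091 in 2xR5 and -0.096 in 4x. In replicate 2 they were -0.058, -0.20 and -0.26, and in replicate 3, which joins 1x only to 4x, the difference was -0.18. All 7 differences were thus below 0, while the order of the other lines was not the same in replicates 1 and 2.

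The tetraploid difference of BEL5 clone 1 in leaf was -0.18 ± 0.08 (n = 3 replicates, 95% interval -0.35 to -0.01, unadjusted p = 0.040, limma with Benjamini-Hochberg adjusted p = 0.084). In that comparison 39.8% of all leaf clones passed and 49.7% had a larger absolute difference. The diploid difference was -0.14 ± 0.08 (n = 2 loops, interval -0.32 to 0.03, adjusted p = 0.225), where 16.6% of clones passed. As deposited, the values for 4x were as large in leaf as in root tip. With arrays scaled to a common spread they were -0.20 in leaf and -0.019 in root tip. The difference between the tissues was not tested.

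Among the lines above the monoploid level of ploidy, BEL5 clone 1 showed no fixed order in leaf. The tetraploid differed from the diploids by -0.04 ± 0.08 (adjusted p = 0.804), with 0.065 in replicate 1 and -0.14 in replicate 2. The diploids differed from the mean of 1x and 4x by -0.05 ± 0.07 (adjusted p = 0.733). Line 2xR5 differed from 2xR3 by -0.05 ± 0.08 (interval -0.22 to 0.12, adjusted p = 0.858), with 0.14, -0.14 and -0.16 in replicates 1 to 3. The background of calls in these comparisons was 3.3%, 2.17% and 0%, the last with 518 of 6001 clones at an unadjusted p under 0.05.

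The mean Cy5 over Cy3 ratio of BEL5 clone 1 was 0.16 over the loop of leaf replicate 1 and 0.23 over that of replicate 2, where line differences cancel. Of all 6001 leaf clones, 31.2% and 11.1% had a larger absolute mean, and the median over clones was 0.109 and 0.095. In the dye-swapped pairs of replicate 3 the means were 0.007 and 0.002, and in root tip 0.066 and 0.012. With 4 arrays for 3 line differences and 1 offset, a loop cannot show whether its arrays share that offset. An offset common to a loop cancels from its line values, because each line carries each dye once.

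The green tissue marker PSBR, a component of photosystem II, was read beside the leaf values. Its clones differed between 4x and 1x by -0.26 ± 0.10 and -0.21 ± 0.09 (limma adjusted p = 0.054 and 0.078), and between the diploids and 1x by 0.11 ± 0.10 and 0.17 ± 0.09 (adjusted p = 0.481 and 0.213). In 4x against the diploids the clones, in the same order, had -0.36 ± 0.10 and -0.38 ± 0.09 (adjusted p = 0.065 and 0.042), so that 1 of 2 passed, with 3.3% of all clones passing. The part of these shifts in the BEL5 values was not tested.

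**Figure D3:**
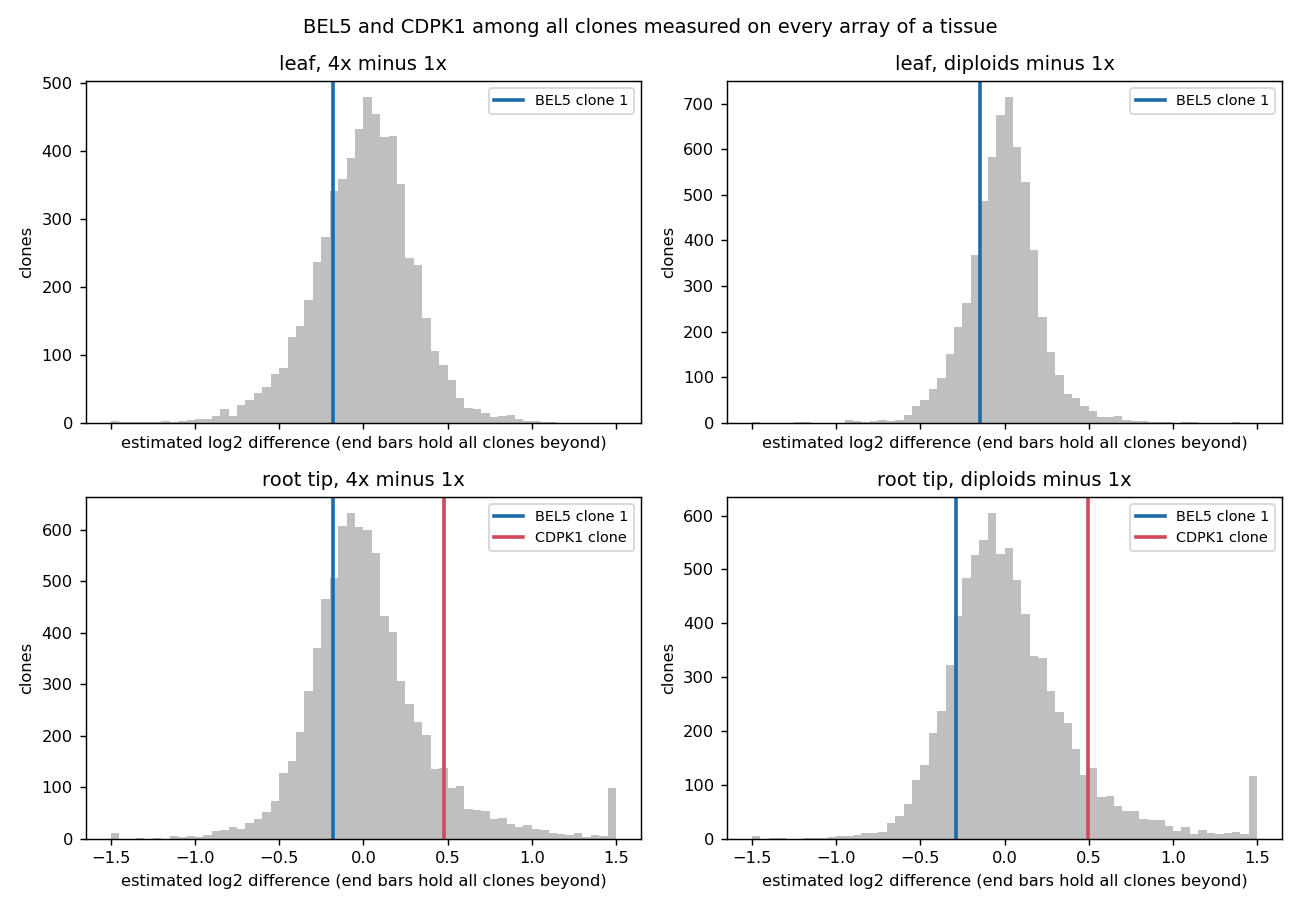
Estimated log2 differences of all clones with a value on every array of a tissue (grey bars, 6001 clones in leaf and 8245 in root tip; the end bars hold all clones beyond 1.5 in size), with coloured lines at BEL5 clone 1 and CDPK1. BEL5 clone 1 stands at -0.18 for 4x in both tissues and at -0.14 and -0.29 for the diploids in leaf and root tip, and CDPK1 at 0.48 and 0.50 in root tip, all within the spread of the other clones.

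The second clone of BEL5 gave leaf differences of opposite sign. Only replicate 2 held all 4 arrays of its loop. There BEL5 clone 2 exceeded the monoploid by 0.29 in 2xR3, 0.64 in 2xR5 and 0.51 in 4x on the log2 scale, on the same arrays on which clone 1 was below it. The monoploid was the lowest line for clone 2 and the highest for clone 1. Among the other arrays with 1x, 4x over 1x was 0.52 in replicate 3 and 1x over 2xR5 was -0.71 in replicate 1, from 1 spot each. The array of 2xR3 over 1x in replicate 1 was -0.069, with spots at -0.17 and 0.029.

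To use all 9 leaf arrays of BEL5 clone 2, a fit of the single arrays with a dye term was added after the values had been seen. It put 4x above 1x by 0.60 ± 0.10 (95% interval 0.37 to 0.82, 1.51-fold, limma adjusted p = 0.00257) and the diploids above 1x by 0.44 ± 0.08 (interval 0.27 to 0.61, 1.36-fold, adjusted p = 0.00392). In this fit 29.3% and 20.3% of 7470 clones passed. Arrays of a replicate share RNA samples and are counted as separate here, so these p-values are too small. The fit takes the same dye offset for all leaf arrays of a clone. For clone 2 it was -0.27, towards Cy3, opposite in sign to the means of clone 1 in replicates 1 and 2. Those of clone 1 were 0.16 and 0.23 there but 0.007 and 0.002 in replicate 3, so a common offset may not hold. The replicate 3 arrays of clone 2 have no dye-swapped partner with a value, so its offset there is not known. Without replicate 3, 4x minus 1x was 0.49 for clone 2.

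Tetraploid minus diploid BEL5 clone 2 was 0.16 ± 0.09 (adjusted p = 0.288) and 2xR5 minus 2xR3 was 0.22 ± 0.10 (adjusted p = 0.647), neither past the threshold. For 2xR5 minus 2xR3 the loop of replicate 2 gave 0.34. The replicate 3 array of 2xR5 over 2xR3 was -0.16 as deposited, with spots at -0.135 and -0.183. That array has no dye-swapped partner with a value, so its sign depends on the assumed offset. On the same 9 arrays, clone 2 differed from clone 1 by 0.88 ± 0.11 for 4x minus 1x (95% interval 0.60 to 1.17) and by 0.59 ± 0.08 for the diploids minus 1x (interval 0.37 to 0.81). The clones also differed without 1x, by 0.29 ± 0.09 for 4x minus the diploids (interval 0.05 to 0.54). For 2xR5 minus 2xR3 the difference was 0.38 ± 0.11 (interval 0.10 to 0.67), and for diploids minus the ends 0.15 ± 0.07 (interval -0.03 to 0.33). These values too rest on the same offset for all arrays. With each replicate left out in turn, clone 2 stayed between 0.49 and 0.66 for 4x minus 1x, and clone 1 on the same arrays between -0.32 and -0.25. These intervals count the 9 arrays as independent although they come from 3 replicates, so they are too narrow. The clones that share the symbol BEL5 thus had opposite signs in leaf, and no single leaf value for the gene is given. Whether both report the same transcript was not tested, and clone 2 has no root tip value to set beside clone 1.

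For CDPK1 in leaf, only 4 spot values on 3 arrays exist, and no comparison of lines was possible. In replicate 1, 2xR3 over 1x was -0.30 from 1 spot, and 4x over 2xR3 was -0.40 and -0.71. In replicate 2, 2xR3 over 4x was -0.18 from 1 spot. The arrays of 2xR3 and 4x were thus below 0 in both dye orientations, so that they give no direction between these lines.

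Other genes of the pathways were taken from lists of homeobox partners, tuberization and day length, calcium signalling, and sink starch and storage. They were matched by symbol alone, which found 8 of them, with 12 clones, and no further BEL1-like or KNOX gene. Genes under a LOC number or on spots without a symbol could not be found this way. In leaf, 4 of 6 tested clones passed for 4x against 1x (3 higher, 1 lower; 39.8% of all clones) and 2 of 6 for the diploids, both higher (16.6% of all clones). In root tip, 1 of 7 tested clones passed for the diploids against 1x, which was lower (45.3% of all clones), and 0 of 7 for 4x (30.1%), where 2 clones had an unadjusted p under 0.05. In the other 6 comparisons limma called 0 listed clones, with 0 to 3 clones at an unadjusted p under 0.05 in each. Among all clones, the share that passed in those ran from 0% to 20.1%, the latter for the diploids against the mean of 1x and 4x in root tip.

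CDPK2, the only other listed gene of calcium signalling found by its symbol, also encodes a calcium-dependent protein kinase. CDPK2 in root tip differed from 1x by -0.05 ± 0.07 in the diploids (values -0.088 and -0.021, adjusted p = 0.533) and by -0.18 ± 0.08 in 4x (adjusted p = 0.131). Both of its loops thus lay below 0, where CDPK1 had 0.46 and 0.54. The difference between the kinase genes was not tested. In leaf CDPK2 was near 0, with 0.01 ± 0.07 in 4x and 0.03 ± 0.07 in the diploids (adjusted p = 0.932 and 0.827).

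Of the tuberization and day length list, 4 genes with 6 clones were found by symbol. The sucrose transporter gene SUT2 in root tip differed from 1x by -0.13 ± 0.08 in the diploids and -0.10 ± 0.09 in 4x (adjusted p = 0.217 and 0.450). The gene with the symbol CO, the day length regulator CONSTANS in Arabidopsis, had -0.17 ± 0.21 and -0.25 ± 0.24 (adjusted p = 0.522 and 0.454). Its difference of 2xR5 from 2xR3 was -0.28 in 1 root replicate and 0.76 in the other, so that its error was the widest of the listed clones in root tip. In leaf the 14-3-3 protein gene 16R had 1 of 3 clones in the fit, with -0.20 ± 0.09 in 4x and 0.11 ± 0.09 in the diploids against 1x (adjusted p = 0.090 and 0.440). GA2OX1, whose enzyme inactivates gibberellins, had a value on 3 of 12 leaf and 0 of 8 root arrays and was not tested.

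**Figure D4:**
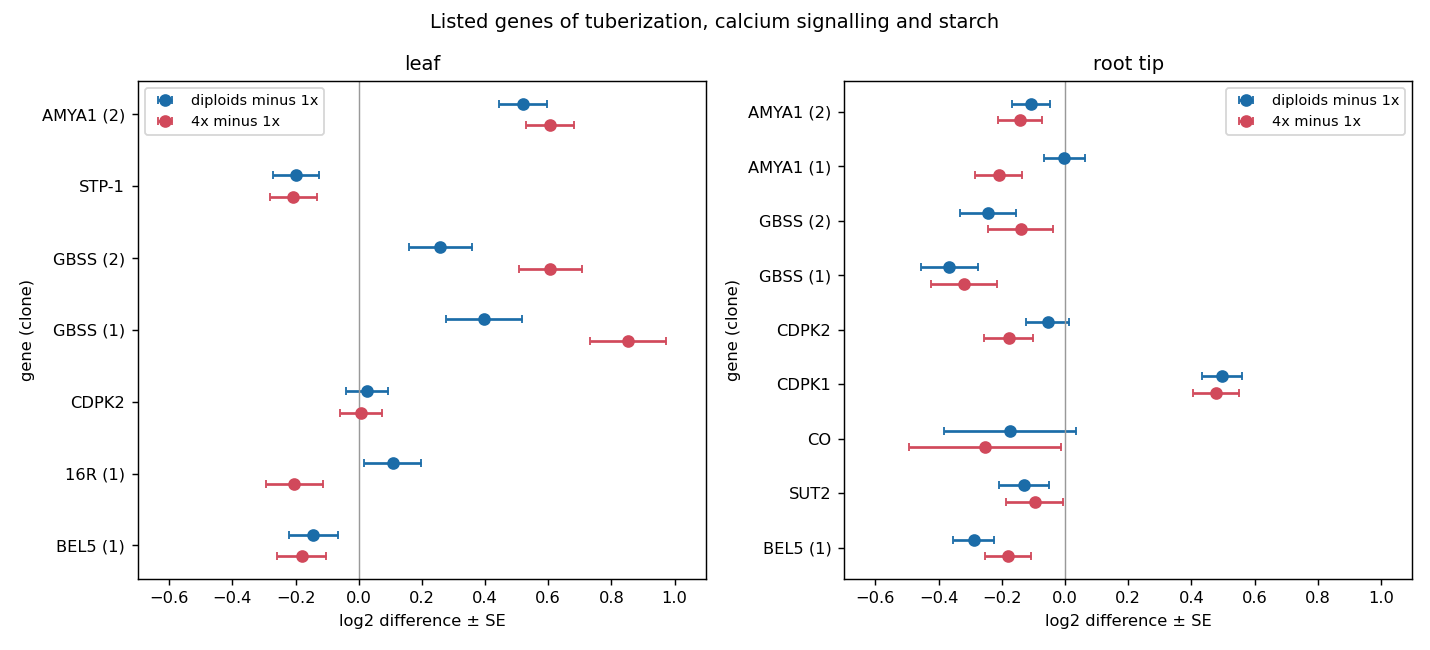
Log2 differences ± SE of the diploids (blue) and of 4x (red) from 1x for each listed clone in the fit of a tissue; a number after a gene is its clone. In root tip CDPK1 stands at 0.50 and 0.48 and the other clones at or below 0, and in leaf the clones of GBSS and AMYA1 reach 0.26 to 0.85.

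Starch genes made up all the calls in the lists, but they also supplied 4 of the 6 clones tested in leaf and 4 of the 7 in root tip. The lists were chosen with earlier results of these data known, so the p-values below are no independent test. In leaf, the clones of GBSS, which makes amylose, were higher in 4x than in 1x by 0.85 ± 0.12 and 0.61 ± 0.10, and a clone of AMYA1, an alpha-amylase gene, by 0.61 ± 0.08 (limma adjusted p = 0.000962, 0.00164 and 0.000556). The starch phosphorylase gene STP-1 was lower, at -0.21 ± 0.07 (adjusted p = 0.044). The median of these 4 clones, which stand for 3 genes, was 0.61 in that comparison, against 0.015 over all clones. In root tip the median of the list's 4 clones in the fit was -0.18 for 4x minus 1x, against -0.012 over all clones, and 0 of them passed. These are not the same 4 clones as in leaf. STP-1 had a value on 0 of 8 root arrays, and another AMYA1 clone, with a value on 0 of 12 leaf arrays, was in the root fit. In the diploids, 1 GBSS clone (0.40, adjusted p = 0.046) and AMYA1 (0.52, adjusted p = 0.0028) were higher in leaf. In root tip 1 GBSS clone was lower in the diploids (-0.37 ± 0.09, adjusted p = 0.021), the direction of BEL5 clone 1 there, and the other 3 starch clones did not pass.

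The genes with 1 symbol whose line values were most like those of the members were listed by Pearson r, with no test. In root tip, over 8 values, CDPK1 was most like LOC102577704 (r = 0.995), LOC102587698 and LOC102606273 (both 0.989), among 578 named clones. SHKA (0.968) was the most alike of those whose symbol is no LOC number. BEL5 clone 1 was most like GAPDH (0.987), LOC102592788 (0.983) and LOC102577454 (0.982). Such values are common there, since 10.7% of all root clones had r above 0.9 with CDPK1 and 10.9% with BEL5 clone 1. In leaf, over 12 values, BEL5 clone 1 was most like LOC102583225 (0.938), LOC102600107 (0.924) and LOC102577552 (0.917), with 0.933% of all clones above 0.9. DHAR2 (0.889) was the most alike there of those whose symbol is no LOC number. All values of a tissue share the same arrays.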

How the data were processed

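Each spot's deposited value is a log2 ratio that the authors made with limma, per the submitters' processing notes, whose version and background correction are not stated there. No array median was farther than 0.014 from 0. No intensities were used here, so dim spots and slide effects were not examined.

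Duplicate spots were paired by the print layout (905 of 905 accessions with 2 annotated spots fell on a pair) and averaged. Loops of 4 arrays were solved by least squares for their lines, and the dye-swapped arrays of leaf replicate 3 (r = -0.54 and -0.479 between swaps) were averaged. These line values entered lmFit and eBayes of limma 3.58.1 (R 4.3.3), tissues apart, with replicate as a block, because ratios exist only within a replicate; each leaf replicate 3 pair was its own block. Residual degrees of freedom were 5 in leaf and 3 in root tip. The call threshold was a Benjamini-Hochberg adjusted p of 0.05 over all clones of the tissue. The steps were run on simulated data in which the set 4x differences were larger than those of the members. The simulation did not include the wider spread of the root arrays with 1x, so it cannot show how that spread affects the calls.

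In leaf, replicate 3 also enters estimates of the diploids against 1x through its pair of 1x and 4x. Members and gene lists were chosen with earlier results of these data known. Of each list, up to 4 genes with the smallest F test p were to be named, and of the most alike genes the best 3 plus the best with a symbol that is no LOC number. Gene symbols are those of the platform's annotation and may be outdated: 1630 spots have 1 symbol, 180 several and 30638 none. Alternatives were scaling, no block, missing values, robust eBayes, single spots, leaving out replicates, a joint fit of tissues and gene means.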

Additional observations from a re-analysis of the deposited data

How the results depend on the processing

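No tested comparison of BEL5 clone 1 or CDPK1 passed the threshold, as reported or under any alternative run (limma). Other values have no test, and 7 values moved. Moved means a shift beyond the SD of the replicates, or for BEL5 clone 2 beyond the SE of the fit with a dye term. The root tip diploid difference of BEL5 clone 1, from -0.29 to -0.19 on scaling, was not counted, as its replicate SD was 0.12. With arrays scaled to a common spread, in root tip BEL5 clone 1 moved to -0.019 for 4x minus 1x, and CDPK1 to 0.30 for 4x and 0.33 for the diploids minus 1x. From the first spot alone, BEL5 clone 2 in leaf gave 0.38 for the diploids minus 1x. The array-level fit with a dye term, chosen after seeing the data, moved clone 2 to 0.16 for 4x minus diploids, 0.14 for diploids minus the ends and 0.22 for 2xR5 minus 2xR3. Without the replicate block, BEL5 clone 1 in leaf was -0.18 for 4x (adjusted p = 0.203) and -0.14 for the diploids (adjusted p = 0.288). Over all alternatives these leaf values ran from -0.22 to -0.14 (adjusted p = 0.055 to 0.387) and from -0.18 to -0.11 (adjusted p = 0.173 to 0.541). Clone 2 entered neither the gene means nor the fit of line values that allowed missing values. Both gave clone 1 the same leaf estimates as the main fit, so they do not weigh the clones against each other. Leaving out 1 replicate turned the sign of 3 uncalled leaf values of clone 1, 4x minus diploids (-0.12 to 0.043), diploids minus the ends (-0.11 to 0.004) and 2xR5 minus 2xR3 (-0.15 to 0.0001), and in root tip of CDPK1, 4x minus diploids (-0.11 to 0.068) and 2xR5 minus 2xR3 (-0.031 to 0.051).

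Counts over all clones moved more. For leaf 4x minus 1x, 2386 of 6001 clones passed, 1239 without replicate 1, 194 without replicate 2 and 2159 without replicate 3. For the leaf diploids minus 1x, 994 passed, against 22, 11 and 988 without replicates 1, 2 and 3. From the first and second spot alone, 638 of 4890 and 607 of 5134 clones passed in that comparison. The array-level fit without the block gave 1207 of 6001, and with the dye term and 7470 clones 1517. In root tip, 3735 of 8245 passed for the diploids minus 1x, 712 after scaling, 2408 in the joint fit with leaf, which holds 5121 clones. For root 4x minus 1x, 2481 passed and 185 after scaling. Leaving out a root replicate also needed the joint fit of 5121 clones, so 2 choices changed at once: 970 and 1424 passed for the diploids without replicates 4 and 5, and 716 and 646 for 4x, against 1699 for 4x in the joint fit with both. The cause was not tested. The number of arrays limits the precision.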
